A study of Mus musculus with 6 samples.

Results

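The 9 genes T, Mixl1, Eomes, Tbx6, Mesp1, Msgn1, Foxc1, Meox1 and Hand1 are markers of the primitive streak and of the mesoderm that leaves it. They were taken by symbol from the gene-level expression table, which has 41945 entries and 34433 gene symbols, and all 9 were found, in 10 entries. RNA came from motor neurons (MNs) made in culture from mouse embryonic stem cells (mESCs) of a control line, Hb9, and of a line modelling spinal muscular atrophy (SMA), A2, with 3 samples per line. Both lines have the FVB/N background and an eGFP reporter driven by the promoter of Hb9 (Mnx1). Hb9 cells are labelled wildtype, and the methods of the study give them both intact mSmn alleles and the same SMN2 transgene as A2, whose genotype is SMN2+/+;mSmn-/-. Embryoid bodies were first formed in medium with noggin, FGF2 and FGF8b. All cultures then received 1 µM retinoic acid and 1 µM Smoothened agonist for 5 days, and GFP-positive cells were sorted. The sorted cells are called control MNs (Hb9) and SMA MNs (A2). Each genotype is represented by 1 mESC line, so genotype and line cannot be told apart.

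Mesoderm forms at gastrulation, when cells of the epiblast pass through the primitive streak under Nodal, Wnt, BMP and FGF signals. T and Eomes, both T-box transcription factors, and the homeodomain factor Mixl1 mark the streak. Mesp1, Tbx6 and Msgn1 mark cells that have just left it, Foxc1 and Meox1 the paraxial mesoderm and somites, and Hand1 the lateral plate, the heart fields and the extraembryonic mesoderm. The MN lineage is neural, and in the trunk T-box factors of the streak and Sox2 mark opposite choices of a shared axial progenitor. Some of these genes also act outside mesoderm, Foxc1 in head mesenchyme, Hand1 in trophoblast and sympathetic neurons, and Eomes in trophoblast and cortical progenitors.

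Levels are in FPKM, in which the fragments assigned to a gene are divided by its exon length and by the depth of the library. The table holds 1 value per genotype, combined by the authors from its 3 samples, so neither SD nor test was computed and every comparison lacks a replicate check. Values of single samples were not used here. A gene was called higher or lower when its FPKM differed at least 2-fold between genotypes, it reached 1 FPKM in either genotype and it was above 0 FPKM in both. The number of reads behind an FPKM value is unknown. In bulk RNA, fewer cells of a type and less RNA per cell cannot be told apart.

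Of 14926 entries that met these conditions, 6.83% were called higher in SMA MNs and 22.4% lower. The median log2 ratio over them (SMA over control) was -0.29, with 65.9% of them below 0, and ratios are also given relative to this median. Centred on it, 10.4% of entries were higher and 16.5% lower. The targeted gene Smn1 was at 137 FPKM in control and 5.26 FPKM in SMA MNs. Among MN markers, Mnx1 had 41.2 and 44.2 FPKM, whereas Lhx3, a LIM homeodomain factor of early MNs, had 27.6 and 0.348 FPKM and Chat, which makes acetylcholine, had 15.5 and 0.344 FPKM. Of 7 MN markers past the filter, 6 were called lower. Isl1, a further LIM homeodomain factor, and Prph, an intermediate filament gene, were called lower but stayed above 1 FPKM in SMA MNs, at 108 and 5.95 FPKM and at 26.0 and 11.3 FPKM.

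The 9 genes shared no direction. Only 5 of them reached 1 FPKM in either genotype, and of these Eomes was called higher in SMA MNs, Tbx6 and Meox1 were called lower, and Foxc1 and Hand1 stayed inside the 2-fold limit. The 1 higher of 5 stands beside 6.83% of all entries, and the 2 lower of 5 beside 22.4%. The median log2 ratio of the 5 genes was -0.99, or -0.70 relative to the median entry. Counting all 9 without regard to level, 5 had the higher FPKM in SMA MNs and 4 in control MNs, with a median log2 ratio of 0.49. By their levels T, Mixl1, Mesp1 and Msgn1 were at less than 1 FPKM in both genotypes. For Mixl1, Mesp1 and Msgn1 the table has the status NOTEST, under which none of its entries reached 1 FPKM, and for Hand1 the status FAIL, with which Cuffdiff marks a comparison that it could not complete.

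**Figure D1:**
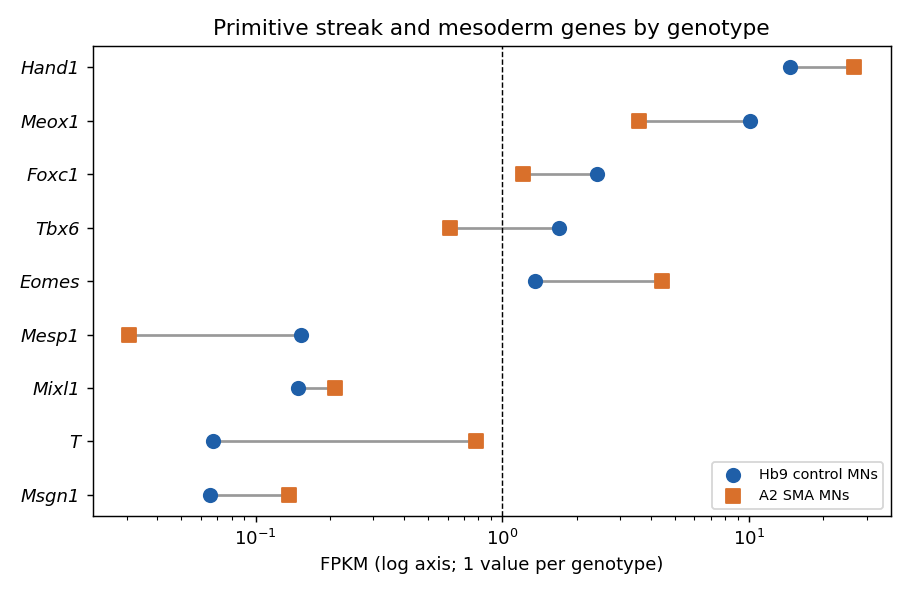
FPKM (log axis) of the 9 genes in control MNs (circles) and SMA MNs (squares), ordered by the control level, with 1 authors' value per genotype and a dashed line at 1 FPKM. Hand1 is the highest in both genotypes, the squares of T and Eomes lie to the right of their circles, and those of Meox1, Foxc1, Tbx6 and Mesp1 lie to the left.

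In control MNs the order of FPKM levels was Hand1, Meox1, Foxc1, Tbx6, Eomes, Mesp1, Mixl1, T and Msgn1. In SMA MNs it was Hand1, Eomes, Meox1, Foxc1, T, Tbx6, Mixl1, Msgn1 and Mesp1. Eomes thus went from place 5 to place 2 and T from place 8 to place 5, while Tbx6 went from place 4 to place 6. Hand1 held 47.9% of the summed FPKM of the 9 genes in control MNs (30.7 FPKM) and 70.8% in SMA MNs (37.7 FPKM). Without Hand1 the sum was 16.0 FPKM in control and 11.0 FPKM in SMA MNs, so the direction of the sum rests on that gene. No spread is known, so neighbours in either order cannot be said to differ.

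The T-box genes of the set are shown with the sequence before their start sites, because T and Eomes had more FPKM in SMA MNs and Tbx6 had less. T, the gene of brachyury, is needed for mesoderm and notochord and spans 8627288 to 8635361 on chromosome 17 (build NCBI m37, as for all gene positions). Eomes, on chromosome 9 from 118387326 to 118395965, encodes the factor that with Nodal signals specifies definitive endoderm and early mesoderm. Tbx6, on chromosome 7 from 133924997 to 133929074, encodes the factor that commits presomitic cells to paraxial mesoderm rather than neural tissue. Each line gives the 250 bases before the RefSeq start on the coding strand, 5′ to 3′, in build GRCm38.p6. These are chr17:8434173-8434422 (plus strand) for T, chr9:118477939-118478188 (plus strand) for Eomes and chr7:126781233-126781482 (plus strand) for Tbx6. Capitals mark matches to a core of T-box binding sites, AGGTGT, or of TCF/LEF sites, CTTTGA, on either strand (reverse complements ACACCT and TCAAAG).
T: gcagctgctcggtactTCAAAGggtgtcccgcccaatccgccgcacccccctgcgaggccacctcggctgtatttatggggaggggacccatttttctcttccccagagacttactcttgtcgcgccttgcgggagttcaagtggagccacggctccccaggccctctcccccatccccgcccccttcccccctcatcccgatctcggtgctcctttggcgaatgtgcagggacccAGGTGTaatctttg
Eomes: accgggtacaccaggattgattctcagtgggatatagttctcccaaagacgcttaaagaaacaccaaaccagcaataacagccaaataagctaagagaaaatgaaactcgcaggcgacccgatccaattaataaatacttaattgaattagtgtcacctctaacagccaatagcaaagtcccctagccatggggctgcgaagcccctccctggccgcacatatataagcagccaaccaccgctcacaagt
Tbx6: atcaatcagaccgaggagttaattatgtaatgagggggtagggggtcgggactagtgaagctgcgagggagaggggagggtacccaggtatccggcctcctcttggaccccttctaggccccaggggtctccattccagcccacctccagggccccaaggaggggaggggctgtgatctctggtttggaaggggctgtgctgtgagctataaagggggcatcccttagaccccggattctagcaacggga
The T sequence held the T-box core from 14 to 9 bases before the start and the TCF/LEF core, on the opposite strand, from 234 to 229 bases before it. The windows of Eomes and Tbx6 held neither. Among 32851 promoter windows of the same length, 11.8% held the T-box core and 13.8% the TCF/LEF core on at least 1 strand. Sequences were at hand for 6 of the 9 genes, and of the others Mesp1 held both cores, Msgn1 held the TCF/LEF core and Foxc1 held neither. No 2 matches overlapped. A match describes the letters and is not evidence of binding.

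T was listed at 0.0674 FPKM in control MNs and at 0.782 FPKM in SMA MNs. This is an 11.6-fold ratio (log2 3.54, or 3.83 relative to the median entry), although both levels are under the 1 FPKM needed for a call. Of 5669 entries under 1 FPKM in both genotypes and above 0 FPKM in both, 12.6% were at least 2-fold higher in SMA MNs, and 19 entries (0.335%), T included, had a ratio as large as that of T. With 1 FPKM added to both values the log2 ratio of T was 0.74. T was above 7.16% of the symbol entries with any expression in control MNs and above 35.5% of those in SMA MNs.

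Eomes was at 1.35 FPKM in control MNs and 4.44 FPKM in SMA MNs, a 3.29-fold ratio (log2 1.72, or 2.01 relative to the median entry). The table has a further entry for Eomes over the same span, with 1.09 and 4.27 FPKM and a log2 ratio of 1.98. The library kit does not mark strand, and how reads were shared between these entries is unknown. Both entries had their higher value in SMA MNs. Among the 14926 entries past the filter, 392 (2.63%) had a ratio at least as large as that of Eomes. In the class whose higher level is from 3 to 10 FPKM, 9.54% of entries were called higher in SMA MNs.

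Mixl1, the homeodomain factor of the streak, lies on chromosome 1 from 182623174 to 182627165. Its levels were 0.149 FPKM in control MNs and 0.21 FPKM in SMA MNs, a 1.41-fold ratio. Of the streak genes T, Eomes and Mixl1, Eomes alone was called.

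Of the genes of newly formed mesoderm, Tbx6, Mesp1 and Msgn1, only Tbx6 passed the filter. Tbx6 was at 1.69 FPKM in control MNs and 0.611 FPKM in SMA MNs, which is 2.77-fold lower in SMA MNs (log2 -1.47, or -1.18 relative to the median entry). It lies 968 bp from Ypel3 (53.3 and 40.8 FPKM) and 307 bp from Ppp4c (132 and 148 FPKM), and a part of their reads in the Tbx6 value was not tested. With 1 FPKM added to both values the log2 ratio of Tbx6 was -0.74, inside the 2-fold limit. In the class whose higher level is from 1 to 3 FPKM, 30.6% of entries were called lower. Mesp1, a basic helix-loop-helix (bHLH) factor of cardiac and cranial mesoderm on chromosome 7 from 86937127 to 86938674, was at 0.152 FPKM in control and 0.0306 FPKM in SMA MNs. Msgn1, a bHLH factor of presomitic mesoderm on chromosome 12 from 11215188 to 11215754, was at 0.065 and 0.136 FPKM. The log2 ratios were -2.31 for Mesp1 and 1.06 for Msgn1. With 0.1 FPKM added they were -0.95 and 0.52, which are both inside the 2-fold limit. Of the entries under 1 FPKM, 30.1% were at least 2-fold lower in SMA MNs.

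The paraxial mesoderm genes Foxc1 and Meox1 both had less FPKM in SMA MNs. Foxc1 encodes a forkhead factor and lies on chromosome 13 from 31898515 to 31902504. Its level was 2.42 FPKM in control MNs and 1.21 FPKM in SMA MNs, which at 1.99-fold lower is just inside the limit (log2 -0.99, or -0.70 relative to the median entry). Meox1 encodes a homeodomain factor of somites and lies on chromosome 11 from 101738824 to 101755688. It was at 10.1 FPKM in control MNs and 3.58 FPKM in SMA MNs, 2.83-fold lower in SMA MNs (log2 -1.50, or -1.21 relative to the median entry). Of all entries past the filter, 13.3% had a ratio as low as that of Meox1. In the class whose higher level is from 10 to 30 FPKM, 23% of entries were called lower. The predicted gene Gm11551, whose entry covers the same span as Meox1, was at 0.0746 and 0 FPKM.

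Hand1, which encodes a bHLH factor, lies on chromosome 11 from 57642207 to 57646320 and was the most abundant of the 9 genes. Its level was 14.7 FPKM in control MNs and 26.7 FPKM in SMA MNs, a 1.82-fold ratio (log2 0.86). Relative to the median entry the log2 ratio was 1.15, so the call of Hand1 depends on the scaling. Its entry has the status FAIL, as do 14.0% of the entries past the filter. In SMA MNs the Hand1 level was 6.01 times that of Eomes, the next of the 9, and in control MNs it was 1.45 times that of Meox1. Its paralog Hand2, which acts in the heart and in sympathetic neurons and was chosen after its values were seen, was at 0.594 FPKM in control and 0.324 FPKM in SMA MNs.

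**Figure D2:**
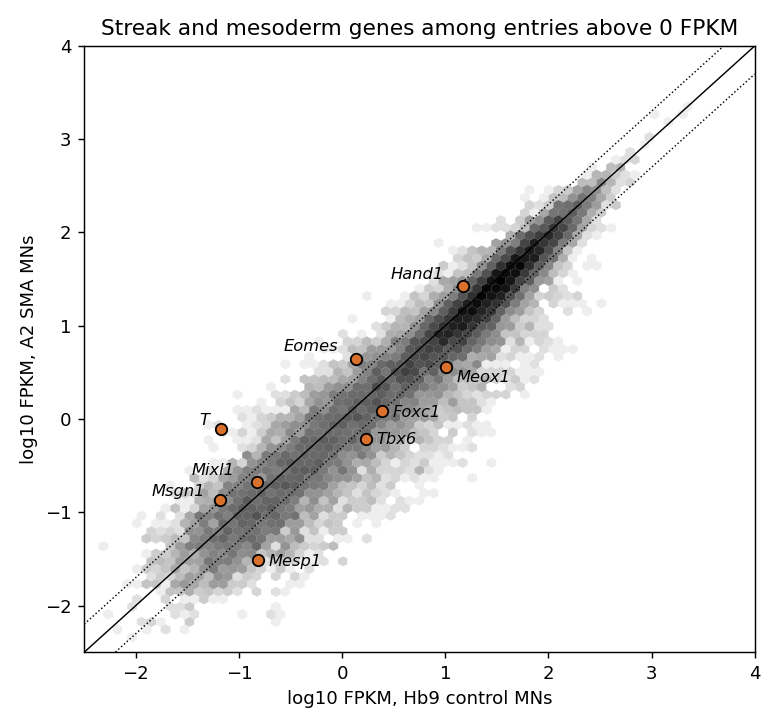
Log10 FPKM in SMA MNs against log10 FPKM in control MNs for all symbol entries above 0 FPKM in both (grey hexagons, darker for more entries) and for the 9 genes (filled circles). The solid line marks equal levels and the dotted lines 2-fold differences. T and Eomes lie above the upper dotted line, Msgn1 on it, Foxc1 on the lower one, and Meox1, Tbx6 and Mesp1 below it.

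**Figure D3:**
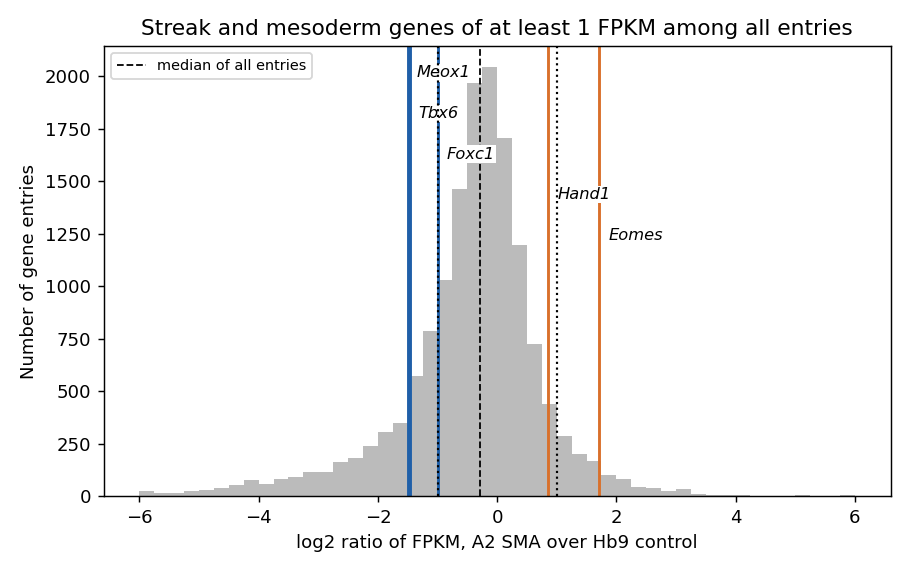
Histogram of the log2 FPKM ratio (SMA over control) over 14926 entries of at least 1 FPKM in either genotype, with ratios beyond 6 in either direction placed in the end bins. Solid lines mark the 5 genes past the filter, the dashed line the median of -0.29 and dotted lines the 2-fold limits. Tbx6 and Meox1 nearly coincide at log2 ratios of -1.47 and -1.50, and Eomes lies at 1.72.

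Signals and receptors that induce the streak were examined next. Of 23 such genes 20 passed the filter, of which 5 were called higher in SMA MNs and 2 lower (against 6.83% and 22.4% over all entries). Their median log2 ratio was -0.15, and its sign turned with the scaling, to 0.14 relative to the median entry and 0.20 scaled to the upper quartile. Nodal, the TGF-beta family ligand that induces mesoderm and endoderm, was at 5.39 FPKM in control and 25.1 FPKM in SMA MNs (log2 2.22). Its co-receptor Tdgf1 was at 10.2 and 105 FPKM (log2 3.37, status FAIL). Foxh1, which binds DNA with Smad proteins (log2 1.53), Fgf4 (2.14) and Wnt8a (1.08) were the other genes called higher and were chosen after their values were seen. The lower genes were Gdf1, which shares its entry with Lass1 (log2 -1.48), and the activin receptor gene Acvr2a (-1.17). The most abundant genes besides Tdgf1 were inside the 2-fold limit, with 1540 and 1603 FPKM for Ctnnb1, 133 and 98.7 FPKM for Smad4 and 114 and 74.2 FPKM for Fgfr1. Wnt3 (0.456 and 0.17 FPKM), Wnt3a (0.0721 and 0.213 FPKM) and Fgf8 (0.532 and 0.748 FPKM), all ligands of the streak and chosen after their values were seen, were under 1 FPKM.

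Of 18 other regulators of the streak and of mesendoderm 11 passed the filter, with 2 called higher and 5 lower (against 6.83% and 22.4% over all entries) and a median log2 ratio of -0.76. Lefty2, a Nodal antagonist that is also induced by Nodal, was at 1.01 FPKM in control and 9.31 FPKM in SMA MNs (log2 3.20), and the ligand Fgf17 at 0.174 and 1.16 FPKM (2.74). Lower in SMA MNs were Lhx1 (21.2 and 0.696 FPKM, log2 -4.93), Sp8 (7.99 and 0.305 FPKM, -4.71) and Foxa2 (55.9 and 18.2 FPKM, -1.62). All 3 also act in the ventral neural tube or its neurons. Nkx1-2 (log2 -4.16) and Sox17 (-1.11), chosen after their values were seen, complete the genes called lower. Snai1, which drives the loss of epithelial junctions in the streak, was at 9.42 and 8.45 FPKM. Cer1, an antagonist secreted by anterior endoderm, was listed at 0 FPKM in control and at 0.0397 FPKM in SMA MNs.

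The list of paraxial mesoderm and somite genes had 21 of 22 genes in the table and 11 past the filter, of which 8 were called lower in SMA MNs and 2 higher (against 22.4% and 6.83% over all entries). Its median log2 ratio was -2.11, and -0.35 over all its genes with no filter. The other 10 genes in the table were under 1 FPKM in both genotypes, among them Pax3 and Myf5, chosen after their values were seen. The most abundant genes called lower were Dll1 (91.2 and 8.65 FPKM), Dll3 (82.5 and 4.52 FPKM, status FAIL) and Lfng (41.8 and 2.05 FPKM), which are parts of Notch signaling in presomitic mesoderm and also in neural progenitors. Those called higher were Ripply1, a repressor of Tbx6 activity at somite borders (0.651 and 5.01 FPKM, log2 2.94), and Tcf15, a bHLH factor of somites that is also made in epiblast cells (10.1 and 32.1 FPKM, log2 1.67). Meox2, the paralog of Meox1, was at 0.0541 and 0.0778 FPKM and Mesp2, the paralog of Mesp1, at 0.768 and 1.36 FPKM. Both were chosen after their values were seen.

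Genes of lateral plate, cardiac and blood-endothelial mesoderm, the tissues in which Hand1 acts, were taken as a separate list. It had 26 genes in the table, of which 19 passed the filter, with 3 called higher and 7 lower (against 6.83% and 22.4% over all entries) and a median log2 ratio of -0.70. Pecam1, an adhesion molecule of endothelium that mESCs also make, was at 21.8 FPKM in control and 68.7 FPKM in SMA MNs. Gata1, the erythroid factor, was at 0.674 and 2.7 FPKM. Among other endothelial genes, chosen after their values were seen, the cadherin gene Cdh5 was called higher (0.796 and 2.33 FPKM), the VEGF receptor gene Kdr was called lower (1.36 and 0.513 FPKM) and Flt1, a further VEGF receptor gene, was not called (2.44 and 2.40 FPKM). The lowest ratios were those of Tal1 (8.82 and 0.157 FPKM, log2 -5.81) and Tbx20 (20.3 and 1.52 FPKM, -3.74), and Gata2 was at 20.7 and 3.996 FPKM. These 3 factors are made in spinal or hindbrain neurons as well as in blood or heart. Of cardiac muscle genes, also chosen after their values were seen, the contractile genes Actc1 (5.59 and 1.89 FPKM) and Myl7 (4.97 and 2.38 FPKM) were called lower and the factor Nkx2-5 (1.40 and 0.796 FPKM) was not called. Tnnt2 and Tbx5 were under 1 FPKM in both genotypes.

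Beyond T, Eomes and Tbx6, 14 further T-box genes were listed after earlier results were known, and 7 of them passed the filter, with 1 called higher and 3 lower (against 6.83% and 22.4% over all entries). Of the 14 genes 4 are also in the list of lateral plate mesoderm, Tbx2 and Tbx20 among them. Tbx4, a gene of the hindlimb, was called higher in SMA MNs (1.02 and 2.9 FPKM). Tbx2 (2.68 and 0.947 FPKM), Tbx20 and, chosen after its values were seen, Tbx1 (2.25 and 1.12 FPKM) were called lower. The median log2 ratio was -0.13 and turned to 0.16 relative to the median entry. Tbx3, which is made in mESCs and in heart and limb, was at 15.4 and 28.7 FPKM, and Mga, a broadly made gene with a T-box, at 48.5 and 59.4 FPKM. Tbr1 and Tbx21, the closest relatives of Eomes and chosen after their values were seen, were under 1 FPKM in both genotypes.

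**Figure D4:**
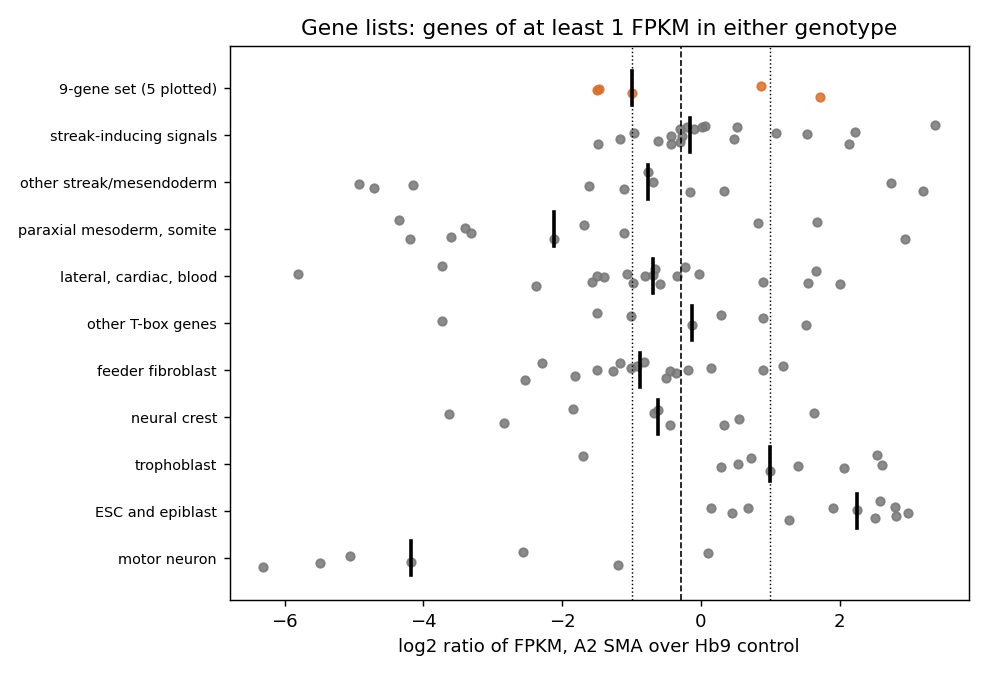
Log2 FPKM ratio (SMA over control) of each gene past the filter, by list, with a thick bar at the median of the list, a dashed line at the median of all entries and dotted lines at the 2-fold limits. The 5 plotted genes of the set (top row) lie from -1.50 to 1.72, paraxial genes reach -4.35, and the bars of the ESC and epiblast and MN lists lie at 2.26 and -4.18.

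Markers of other cells that the cultures or the sort could hold were read beside these results. For mESC and epiblast genes, which are upstream of the streak, 8 of 11 were called higher in SMA MNs and none lower (against 6.83% and 22.4% over all entries), with a summed level of 466 FPKM in control and 1943 FPKM in SMA MNs. Utf1, a chromatin factor of mESCs, was at 59.8 and 357 FPKM (status FAIL). Fgf5, which marks the primed epiblast from which the streak forms, was at 0.449 and 1.69 FPKM and was chosen after its values were seen. Sox2 was at 179 and 197 FPKM and was not called. Otx2 (19.0 and 25.8 FPKM, status FAIL) and Pou3f1 (3.61 and 5.80 FPKM), chosen after their values were seen, were also not called. The part of mESC or epiblast cells in the levels of T, Eomes and the streak-inducing genes called higher was not tested. The mESCs had been grown on fibroblast feeders, which were left to settle out before differentiation, and 16 of 20 fibroblast markers passed the filter. Of these 7 were called lower in SMA MNs and 1 higher (against 22.4% and 6.83% over all entries), and their median log2 ratio was -0.87. The summed level of the list was 267 FPKM in control and 228 FPKM in SMA MNs, and without Fn1, the most abundant, it was 192 and 90.4 FPKM. Fn1 was at 74.5 and 138 FPKM (status FAIL), Fbln2 at 40.3 and 8.23 FPKM, Mmp2 at 31.2 and 8.85 FPKM and Col1a2 at 20.1 and 8.93 FPKM, while S100a4 was listed at 0.325 and 0 FPKM. The later sort kept GFP-positive cells that excluded propidium iodide, and the purity of the sorted cells is unknown here. The part of feeder cells in the levels of Foxc1 and Meox1 was not tested.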

How the data were processed

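RNA of 6 samples, 3 per genotype, was sequenced by the authors. Reads were checked with FastQC 0.10.1 and trimmed with CutAdapt, mapped with TopHat (given as version 2.04) to NCBI m37 with Ensembl genes, and assembled with Cufflinks. The deposited values are FPKM from the gene-level output of Cuffdiff, 1 per genotype, combined by the authors from its samples. The table also holds the authors' own fold changes, test statistics, p-values and q-values, which were not used. Of its status column only the flags were read.

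For each symbol the entry with the highest FPKM was taken, and each entry was counted once in the background. Log2 ratios had no pseudocount. Starts were raised by 1 to count from 1. The 9 genes and all lists were chosen with earlier results of these data known, and the T-box family list and the TCF/LEF core after the table was read. A gene of the neural crest list is not reported here and was left out of its counts. Genes named from the lists are at most the 4 most abundant, the 2 with the largest ratio in each direction and those listed at 0, and others are said to be chosen after their values were seen. Alternatives were pseudocounts of 0.1 and 1 FPKM, no filter or 5 FPKM, summed entries, leaving out the status FAIL, 3 scalings, fold limits of 1.5 and 4, and counting genes at 0 in a genotype as called. The procedure was tested on simulated data. Promoter sequences came from RefSeq. Python 3.11.15, numpy 2.4.6, pandas 2.3.3 and matplotlib 3.10.9 were used.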

Additional observations from a re-analysis of the deposited data

How the results depend on the processing

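Counts over the 9 genes were small and moved with most settings. The 1 gene called higher became 3 with no filter, 2 with ratios centred on the median entry, scaled to the upper quartile, scaled to Gusb, Pgk1 and Rpl13a or with a fold limit of 1.5, and 0 with a filter of 5 FPKM or a fold limit of 4. The 2 genes called lower became 3 with no filter or a fold limit of 1.5, 1 with a pseudocount of 1 FPKM or a filter of 5 FPKM and 0 with a fold limit of 4. Their median log2 ratio was 0.49 with no filter and -0.32 with the filter of 5 FPKM, which changes the genes counted. Of 62 recomputed ratios of single genes of the set none changed sign, 6 moved inside the 2-fold limit, all with a pseudocount, and 3, all of Hand1, moved past it under the scalings. The median of the paraxial list was -1.50 with a pseudocount of 1 FPKM, -0.35 with no filter and -2.71 with a filter of 5 FPKM. That of the neural crest list was -1.26 with a filter of 5 FPKM, and that of the MN list was -3.56 with a pseudocount of 1 FPKM and -3.38 with no filter or without the status FAIL. Of 90 recomputed list medians 6 changed sign. That of the streak-inducing list was 0.14 centred and 0.20 scaled to the upper quartile, and that of the T-box family was 0.29 with a filter of 5 FPKM, 0.16 centred, 0.22 scaled to the upper quartile and 0.0069 scaled to Gusb, Pgk1 and Rpl13a. The share of all entries called higher was 4.38% with a pseudocount of 1 FPKM, 10.4% centred, 11.6% scaled to the upper quartile, 12.7% with a fold limit of 1.5 and 1.80% with a fold limit of 4. The last 2 settings gave 35.4% and 8.88% called lower. Centring moved the share of higher entries among those called from 23.4% to 38.8%. No replicate could be left out, because there is 1 value per genotype. No paired analysis was possible because the columns carry no replicate numbers.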

Other observations

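Eomes and Hand1 are also trophoblast genes, so markers of that lineage were read as well. Of 12 such markers 9 passed the filter, of which 4 were called higher and 1 lower (against 6.83% and 22.4% over all entries), with a median log2 ratio of 1.00 and a summed level of 94.8 FPKM in control and 180 FPKM in SMA MNs. Tfap2c, a factor that mESCs and germ cells also make, was at 11.1 and 68.0 FPKM (status FAIL), Esx1 at 41.7 and 51.2 FPKM (also FAIL), Ets2 at 18.2 and 26.3 FPKM and the placental gene Plac1 at 1.14 and 6.65 FPKM. Gata3, whose entry holds a further gene, was at 15.8 and 4.86 FPKM. Prl3d1 and Tpbpa, which define trophoblast giant cells and spongiotrophoblast, were listed at 0 FPKM in control MNs and at 0.0975 and 1.04 FPKM in SMA MNs.

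Neural crest and head mesenchyme, in which Foxc1 acts, gave 9 of 14 markers past the filter, with 1 called higher and 3 lower (against 6.83% and 22.4% over all entries) and a median log2 ratio of -0.62. Ngfr was at 66.3 and 9.24 FPKM, Sox10 at 6.48 and 0.525 FPKM, Erbb3 at 3.18 and 9.78 FPKM and Prrx2 at 14.8 and 9.24 FPKM. Ngfr is also made by spinal MNs.

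The genes nearest to each of the 5 genes past the filter, by distance between their 2 log2 FPKM values, were Actn3, Apobr and Gna15 for Eomes, Ntf3, Gm17112 and Ccdc96 for Tbx6, Mmaa, Nap1l3 and Cap2 for Foxc1, Fhod3, Nudt7 and Ajap1 for Meox1, and Pramef8, Crtap and Fanci for Hand1. The distances were at most 0.127, and with 2 values per gene such likeness describes the levels alone.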
